A study of Mus musculus with 22 samples.

Results

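Any form of the transcription factor CREB was set against GFP in cortical neurons of mouse embryos 8 h after the virus was added. The comparison pools the 12 libraries with a CREB virus, 4 with WT CREB, 4 with S40A, 2 with S133A and 2 with S40A-S133A, against 4 libraries with a GFP virus, 16 of the 22 libraries of the series. Membership follows the virus and time labels alone, and no measured value entered it. WT is the unchanged protein, S40A lacks the serine that carries an O-GlcNAc sugar, S133A lacks the serine that kinases phosphorylate, and S40A-S133A lacks both. The pooled comparison asks what CREB protein changes whichever of these sites is lost. All groups, GFP included, came from E16.5 C57BL/6 embryos labelled Creb1-/- and were kept 7 days in vitro. They were silenced beforehand with TTX (1 µM), which blocks sodium channels, and with D-AP5 (100 µM), which blocks NMDA receptors. A herpes simplex virus (HSV) vector was then added for 8 h, and every culture was depolarized with 55 mM KCl for 2 h. There is thus no undepolarized group and no group with the endogenous gene intact among these libraries. Which cells the virus reached, and what drives its insert, are not stated.

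CREB binds a short DNA element, the cAMP response element (CRE), in the promoters of many genes that neurons switch on with activity. Depolarization opens calcium channels, calcium-dependent kinases phosphorylate CREB, and the phosphorylated protein recruits the coactivators CBP and p300. CRTC proteins bind CREB independently of that phosphorylation. The related factors CREM and ATF1 can occupy the same element, and in cortical neurons the pathway is best known for immediate early genes, neuropeptides and the growth factor BDNF.

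Levels are FPKM, which correct fragment counts for transcript length and library size, here rescaled by median-of-ratios factors of 0.936 to 1.10. Differences are log2(scaled FPKM + 1) in CREB minus GFP, fitted by limma with the run as a term. The 4 runs follow the replicate numbers: runs 1 and 2 hold replicates 1 and 2 of GFP, WT and S40A, and runs 3 and 4 hold their replicates 3 and 4 together with the S133A and S40A-S133A libraries, replicate 1 of each in run 3 and replicate 2 in run 4. Each run therefore has a single GFP library. The bounds deposited with each value lay a median of 16.8 to 23.1% to either side of it for genes at 1 to 2 FPKM and 3.28 to 3.99% at 100 to 200 FPKM, depending on the library. GFP replicate 2 stood apart, with a highest correlation to any other library of 0.927, where the other 15 reached 0.978 to 0.996. The fits across genes were therefore also run without it. Of the marker genes, 17 of 17 for excitatory neurons and 16 of 18 for inhibitory neurons were among the genes tested, which average at least 1 FPKM, as were 21 of 21 for astrocytes and radial glia, 24 of 25 for dividing cells and 11 of 16 for the oligodendrocyte lineage, but 2 of 12 for microglia and 1 of 9 for blood. The cultures thus held neuronal markers, as labelled, and were not free of those of other cells. In bulk RNA, fewer cells of a type and less RNA per cell cannot be told apart.

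Among 12097 genes tested, limma called Creb1 alone at an adjusted p under 0.05, or 0.00827% of genes, and Creb1 was again the only call (0.00827%) without GFP replicate 2. Before adjustment 1217 genes (10.1%) had p under 0.05, 660 of them higher with CREB (5.46%) and 557 lower (4.6%). Leaving out GFP replicate 2 gave 739 (6.11%), 358 higher (2.96%) and 381 lower (3.15%). Differences above 0 were found for 49.5% of genes, and for 49.8% without that library. The comparison was narrow for most transcripts: the 95% interval extended a median of 0.19 log2 units to either side, and for 97.3% of the longer genes with an assigned name it lay within 1 log2 unit of 0.

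Creb1 (chromosome 1, 64532804 to 64604548), the gene the virus supplies, checks the virus labels. It stood at 555 to 2314 scaled FPKM with CREB (median 1015, 12 libraries), against 12.3, 9.69, 14.9 and 11.3 in GFP replicates 1 to 4. The groups were far from overlapping, and the rise was 81.7-fold (95% interval 55.9 to 119, log2 6.35, SE 0.25, adjusted p = 3.99e-08 by limma). With GFP replicate 2 left out the log2 difference was 6.21 (adjusted p = 1.48e-06). The dose of Creb1 RNA differed between runs far more than between forms. The CREB libraries averaged 779 in run 1 and 1209 in run 2 (2 libraries each), and 632 ± 90.6 in run 3 and 2109 ± 188 in run 4 (SD, n = 4 each). By form, Creb1 was 6.39 above GFP for WT and 6.37 for S40A (SE 0.34 each), and 6.16 for S133A and 6.39 for S40A-S133A (SE 0.44 each). A test of any difference among the 4 forms gave an adjusted p of 1 for Creb1 by limma. The sources used here do not say which part of Creb1 is missing in these embryos, so the level with GFP does not check the genotype.

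**Figure D1:**
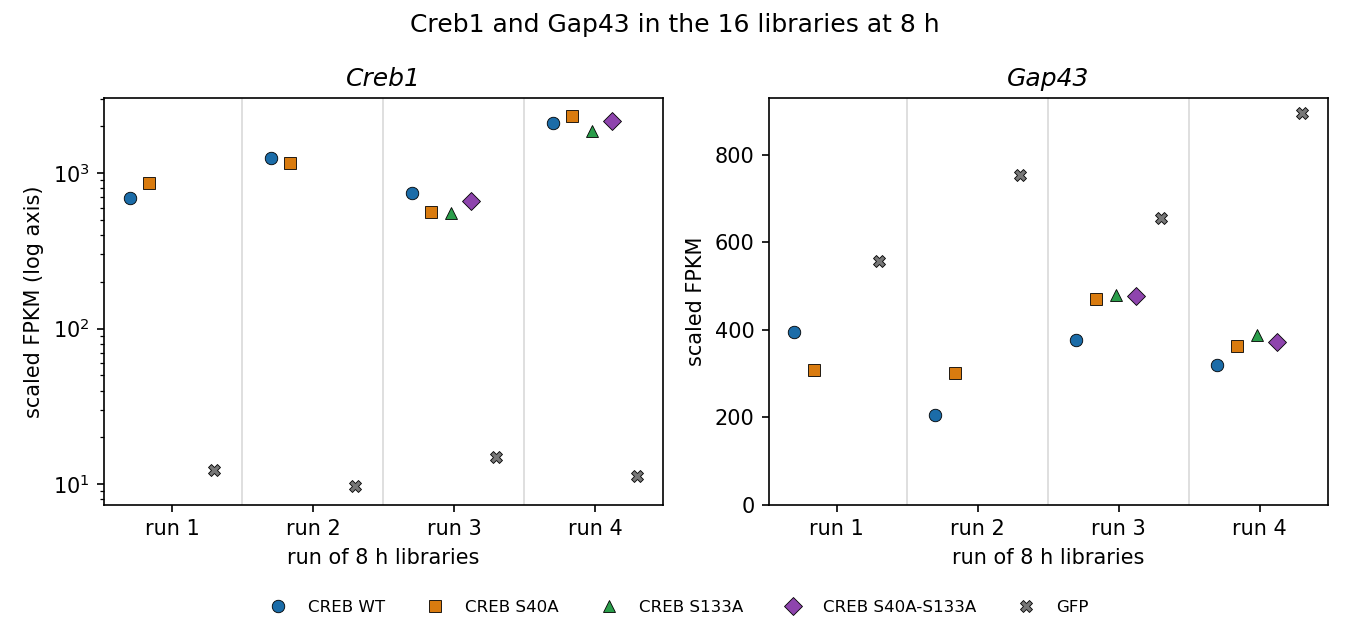
Scaled FPKM of Creb1 (left, log axis) and Gap43 (right, linear axis from 0) in each of the 16 libraries at 8 h, by run; symbols give the CREB form, and the grey cross at the right of each run is its GFP library. Creb1 lies between 555 and 2314 with CREB and between 9.69 and 14.9 with GFP, while all 12 CREB libraries lie below all 4 GFP libraries for Gap43 (205 to 480 against 557 to 895).

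Gap43 (chromosome 16, 42248561 to 42340651), a growth cone protein that PKC phosphorylates in extending and regenerating axons, had the smallest p after Creb1. It stood at 205 to 480 scaled FPKM with CREB (median 374), against 557, 752, 654 and 895 in GFP replicates 1 to 4. No CREB library reached the lowest GFP library. The log2 difference was -1.02 (SE 0.16, 95% interval -1.37 to -0.68), a level 0.493 times that of GFP, and the adjusted p of 0.15 by limma did not pass. It was -0.85 without GFP replicate 2 (95% interval -1.20 to -0.51, adjusted p = 0.53, limma), and the groups still did not overlap. Weighting each library by its own scatter gave -0.95 and passed (adjusted p = 0.0369), but with such weights and without GFP replicate 2 Creb1 was the only call. An exact two-sided permutation of the GFP label within runs gave p = 0.00444, the smallest that its 225 arrangements allow. Gap43 was known from earlier results of these libraries, so that p is a description of this gene and no independent finding.

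The Gap43 difference was present in each run and with each form. It was -0.67 in run 1, -1.59 in run 2, -0.54 in run 3 and -1.31 in run 4. Runs 2 and 4, where the CREB libraries had the higher Creb1 levels, also had the larger Gap43 differences, an ordering of 4 runs that was not tested. Their GFP libraries also had more Gap43, 752 and 895 scaled FPKM against 557 and 654 in runs 1 and 3. With CREB, Gap43 averaged 352.1, 253, 450.2 and 360.5 in runs 1 to 4. It was thus no lower in run 4 than in run 1. Relative to the same GFP libraries, Gap43 was at -1.16 with WT and -0.99 with S40A (SE 0.20 each), and at -0.86 with S133A and -0.90 with S40A-S133A (SE 0.26 each). The forms did not separate from each other (adjusted p = 1, limma). WT replicate 2 had the lowest level of all, 205 scaled FPKM. The difference between the earlier and the later libraries was 0.20 (runs 3 and 4 minus runs 1 and 2; adjusted p = 0.93, limma).

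At 4 h of virus, in 4 CREB libraries (2 WT and 2 S40A) against 2 GFP libraries, Creb1 rose by 4.09 log2 units (SE 0.087, adjusted p = 0.000707 by limma), a smaller difference than at 8 h, but the difference between the times did not pass (2.26, adjusted p = 0.46, limma). Gap43 averaged 561 with CREB and 720 with GFP in the first run, and 506 with CREB and 553 with GFP in the second. Its log2 difference at 4 h was -0.25 (SE 0.10, adjusted p = 0.99, limma). The 8 h effect minus the 4 h effect was -0.78 (adjusted p = 0.99, limma). At 4 h limma called 5 genes (0.0413%), Creb1 and the small RNA entries Mir7037, Mir7048, Mir7666 and Snord92, with 522 (4.32%) at an unadjusted p under 0.05. A change with time was called for 0 genes (0%), with 500 (4.13%) at an unadjusted p under 0.05 by limma.

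Other proteins of growing axons were mostly at or slightly above 0. Of 39 growth cone and axon outgrowth genes, 30 were higher and 9 lower with CREB (median log2 difference 0.06), and none passed. At an unadjusted p under 0.05 there were 6 higher and 1 lower, Gap43 being the lower gene, where all genes tested had 5.46% higher and 4.6% lower. Gpm6a, a membrane glycoprotein of filopodia and neurites, averaged 157 ± 24.4 scaled FPKM with CREB (SD, n = 12) and 121 ± 28.1 with GFP (SD, n = 4), a log2 difference of 0.37 (adjusted p = 0.45, limma). Sema3a, a repulsive guidance ligand, was at 0.32, and Nrp1, its receptor subunit, at 0.16 (adjusted p = 0.45 each, limma). The list divided 35 to 4 without GFP replicate 2, with a median of 0.07, and its median was -0.03 without GFP replicate 3.

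Among relatives and partners of CREB the supplied gene was the only call. Of 15 measured genes in the list of CREB family and coactivators, 8 were higher and 7 lower (median 0.01). Crem, a repressor and activator family that shares the element, stood at 17.1 to 61.8 scaled FPKM with CREB (median 44.8), against 13.7 to 44.9 with GFP, a log2 difference of 0.40 (95% interval -0.14 to 0.93, adjusted p = 0.58, limma). Atf1, the closest relative of both, was at -0.09 (95% interval -0.36 to 0.18). Atf2, a distant relative, was at 0.16 (adjusted p = 0.49, limma) and at 0.05 without GFP replicate 2. The CREB coactivators Crtc1, Crtc2 and Crtc3 were at -0.08, -0.17 and -0.14, with adjusted p-values of 0.52, 0.52 and 0.54 by limma.

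Known CREB targets were examined next. In the RefSeq promoter windows of build GRCm38.p6, from 250 bases before to 50 after each start, the full element TGACGTCA, which is its own reverse complement, was searched for. Windows matched 8582 of 11111 longer named genes tested, and 33 of the measured known targets. Of these, 5 carried the full element: Sst, Scg2, Pcsk1, Dusp1 and Btg2. The stretches around it are shown for 4 of them, and for Med21, the gene of smallest p on the higher side after Creb1, which also carried it; capitals mark the element, and each is written 5′ to 3′ on the gene's own strand.
Sst, minus strand, chr16:23890845-23890932, element starting at -48 from the start: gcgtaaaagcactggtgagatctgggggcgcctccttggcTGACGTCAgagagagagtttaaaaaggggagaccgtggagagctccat
Scg2, minus strand, chr1:79440047-79440134, element at -68: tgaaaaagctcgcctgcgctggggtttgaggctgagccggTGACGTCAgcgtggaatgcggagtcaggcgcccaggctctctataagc
Pcsk1, plus strand, chr13:75089739-75089826, element at -78: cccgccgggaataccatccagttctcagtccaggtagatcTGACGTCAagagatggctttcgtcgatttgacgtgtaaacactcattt
Dusp1, minus strand, chr17:26508568-26508655, element at -143: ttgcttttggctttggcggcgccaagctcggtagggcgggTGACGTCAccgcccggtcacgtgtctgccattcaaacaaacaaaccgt
Med21, plus strand, chr6:146642408-146642495, element at -131: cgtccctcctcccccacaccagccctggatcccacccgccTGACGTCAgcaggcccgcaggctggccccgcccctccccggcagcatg

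None of these target genes passed. Sst, the neuropeptide somatostatin whose promoter first defined the element, stood at 82.7 to 197 scaled FPKM with CREB (median 152), against 184, 183, 65.0 and 177 in GFP replicates 1 to 4. The ranges overlapped throughout, and the log2 difference was 0.09 (95% interval -0.47 to 0.65, adjusted p = 0.93, limma). Scg2, a secretory granule protein, stood at 21.9 to 79.9 with CREB (median 55.7), against 61.4, 57.6, 13.1 and 70.9 with GFP (log2 0.27, 95% interval -0.38 to 0.93). Pcsk1, a prohormone convertase, was at 0.25 (95% interval -0.51 to 1.02), and Dusp1, a phosphatase that ends MAP kinase signals, at 0.08 (95% interval -0.35 to 0.51). GFP replicate 3 was the lowest library for all 4 of these genes. Without GFP replicate 2 the log2 differences were 0.25 for Sst, 0.46 for Scg2, 0.29 for Pcsk1 and 0.17 for Dusp1, and each interval included 0.

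**Figure D2:**
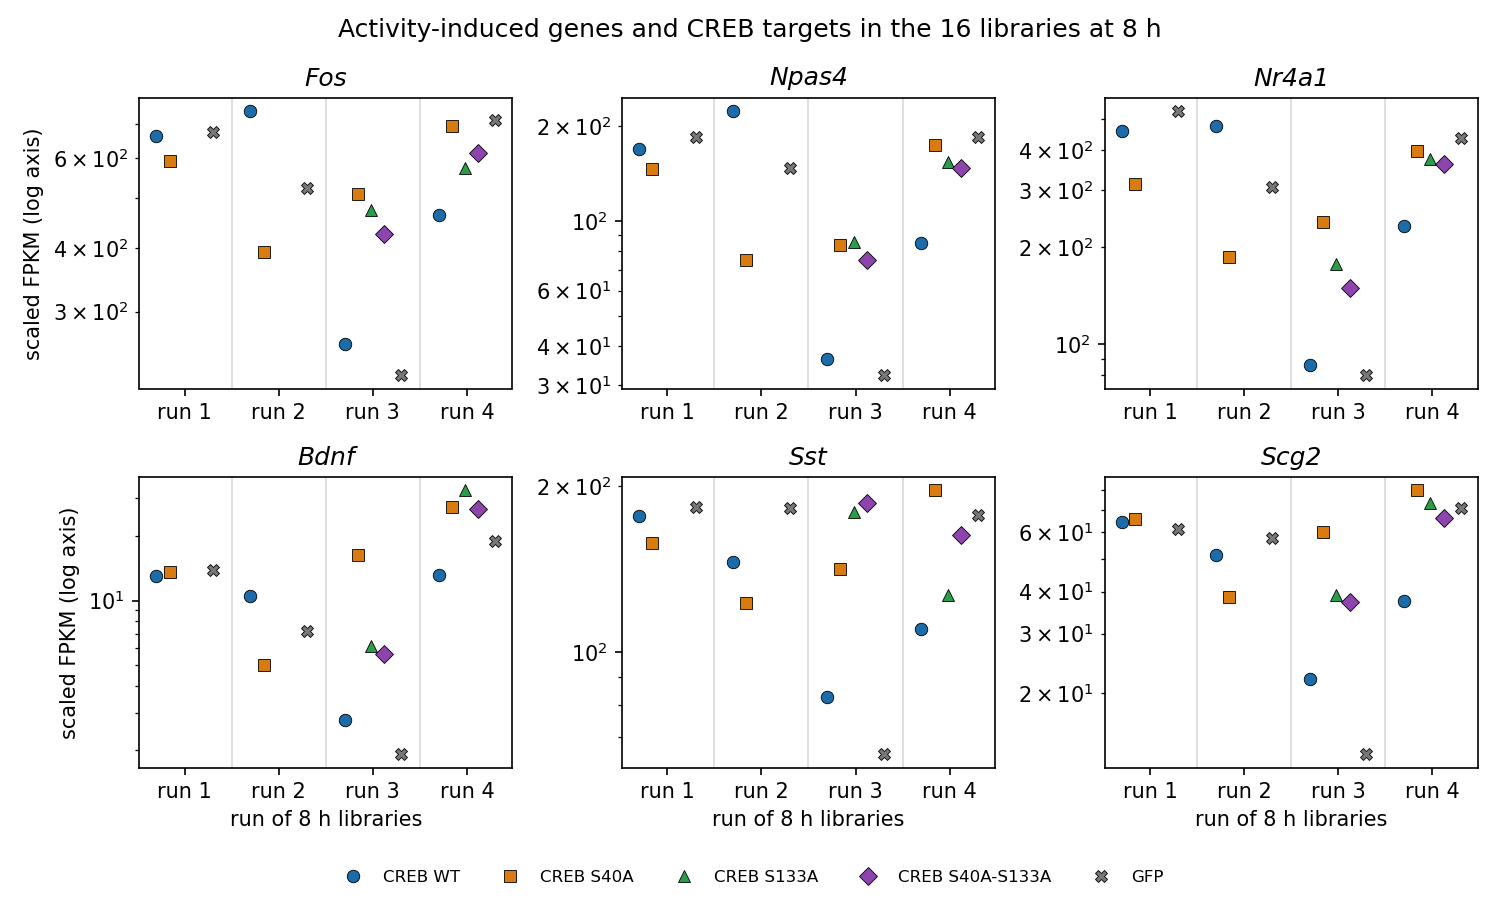
Scaled FPKM (log axis) of 6 activity-induced genes and CREB targets in each of the 16 libraries at 8 h, by run; symbols give the CREB form, and the grey cross at the right of each run is its GFP library. WT replicate 3 and GFP replicate 3, both in run 3, are the 2 lowest libraries in every panel (Fos 260 and 225), and in the other runs the GFP library lies within or near the CREB libraries.

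The immediate early genes showed the same overlap. Fos, a subunit of the AP-1 factor and the classic readout of depolarization, stood at 260 to 741 scaled FPKM with CREB (median 542), against 674, 524, 225 and 712 in GFP replicates 1 to 4. Its log2 difference was 0.14 (95% interval -0.34 to 0.62, adjusted p = 0.86, limma). Npas4, a factor that calcium entry induces selectively in neurons, stood at 36.5 to 224 with CREB (median 116), against 186, 148, 32.3 and 185 with GFP (log2 0.06, 95% interval -0.64 to 0.77). Nr4a1, an orphan nuclear receptor, was at 0.03 (95% interval -0.64 to 0.70). Bdnf, the secreted growth factor, stood at 2.78 to 32.7 with CREB (median 13.1), against 13.96, 7.23, 1.92 and 18.98 with GFP (log2 0.44, 95% interval -0.34 to 1.22, adjusted p = 0.69, limma). These intervals are wider than for most genes and, over all 16 libraries, do not reach beyond 1.22 on the log2 scale in either direction. Without GFP replicate 2, Bdnf was at 0.57 with a wider interval, -0.36 to 1.49. Fos was then at 0.16, Npas4 at 0.14 and Nr4a1 at 0.05, each with an interval that included 0. Fos and Npas4 were thus present at the GFP levels given above in neurons without added CREB.

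Run 3 differed from the others in these genes. GFP replicate 3 and WT replicate 3 were the 2 lowest of the 16 libraries for each of Fos, Npas4, Nr4a1, Bdnf, Sst, Scg2, Pcsk1 and Dusp1. In that run Fos was at 260 with WT, 510 with S40A, 476 with S133A and 427 with S40A-S133A, against 225 with GFP. The CREB minus GFP difference of Fos was 0.84 in run 3 and -0.10, 0.04 and -0.29 in runs 1, 2 and 4. Over the libraries other than GFP replicate 3 the log2 difference was -0.13 for Fos, -0.30 for Npas4, -0.31 for Nr4a1, 0.10 for Bdnf, -0.29 for Sst, -0.16 for Scg2, -0.01 for Pcsk1 and -0.16 for Dusp1, so that 7 of 8 changed sign. What set these 2 libraries apart was not tested.

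Counted as groups, activity genes divided in both directions. Of 47 measured known CREB targets, 33 were higher and 14 lower (median 0.08). At an unadjusted p under 0.05 the list had 0 higher and 3 lower, where all genes tested had 5.46% higher and 4.6% lower. The 3 were Per2, a clock repressor, at -0.17, Arc, a synaptic capsid-like protein, at -0.43, and Dbp, a circadian activator, at -0.39 (adjusted p = 0.47, 0.47 and 0.50, limma). Without GFP replicate 2 there were 0 in either direction, where all genes tested had 2.96% higher and 3.15% lower. Immediate early transcription factors divided 18 to 8 (median 0.04, 26 genes), none at an unadjusted p under 0.05. Of 37 activity-regulated effectors, 19 were higher and 18 lower (median 0.05). Of 28 feedback inhibitors, 17 were higher and 11 lower (median 0.03), with Nfkbia, the inhibitor of NF-kappaB, at -0.24 and Dusp2, a nuclear MAP kinase phosphatase, at -0.23 (adjusted p = 0.45 and 0.48, limma). Without GFP replicate 3 the medians were -0.06 for CREB targets, -0.12 for immediate early factors, -0.01 for effectors and -0.02 for feedback inhibitors.

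The full CRE was found in the windows of 332 genes, 3.87% of those matched. It was in 1.79% of all 32851 windows, but a gene can have several windows, so the share of genes and that of windows are not comparable. Of the 332 genes, 210 were higher and 122 lower with CREB (median 0.03), against 4264 and 4317 of all matched genes (median -0.00). At an unadjusted p under 0.05, 18 were higher (5.42%, against 5.37% of all matched) and 14 lower (4.22%, against 4.82%). Fits without GFP replicate 2 had 11 higher (3.31%, against 3.01%) and 5 lower (1.51%, against 3.3%). The core TGACG or CGTCA without a full element was found in the windows of 2827 genes (32.9% of those matched). Of them 1446 were higher and 1380 lower (median 0.00). With a full element 174, 174, 227 and 138 of the 332 genes were above 0 in runs 1 to 4, with medians of 0.01, 0.01, 0.08 and -0.02, so the excess of higher genes was largest in run 3, where GFP replicate 3 stood low for the targets above. A match describes letters in the window and is not a measured binding site.

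**Figure D3:**
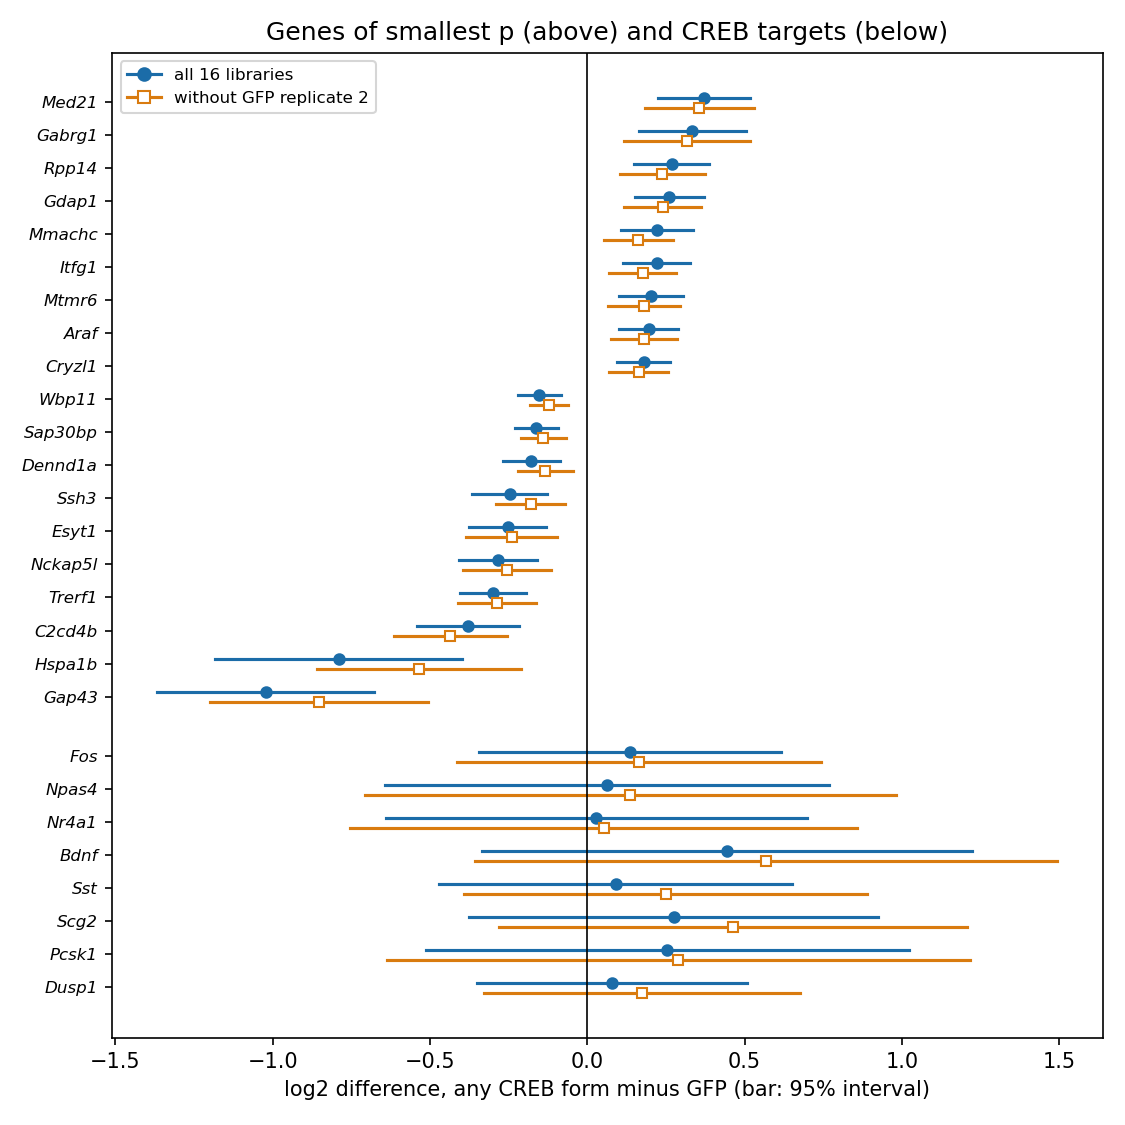
Log2 difference of any CREB form minus GFP at 8 h (horizontal axis) with its 95% interval for Gap43, the 9 genes of smallest p in each direction and 8 CREB targets; filled circles use all 16 libraries and open squares leave out GFP replicate 2. Gap43 lies at -1.02 and the 18 other upper genes lie between -0.79 and 0.37, with no interval reaching 0. Those 18 were chosen by small p, so their intervals over all 16 libraries had to leave out 0, and none passed adjustment. The intervals of all 8 targets, which were not chosen by p, include 0.

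None of the genes with the next smallest p passed. On the higher side Med21 (chromosome 6, 146642579 to 146650600), a subunit of the Mediator complex that links activators to RNA polymerase II, stood at 10.5 to 16.54 scaled FPKM with CREB (median 13.6), against 11.5, 9.82, 11.8 and 9.26 in GFP replicates 1 to 4. Its ranges overlapped across runs, but its log2 difference was 0.34, 0.42, 0.35 and 0.37 in runs 1 to 4, and 0.37 in all (SE 0.068, adjusted p = 0.35, limma). It was 0.36 without GFP replicate 2 (adjusted p = 0.74, limma), and it passed with library weights over all 16 libraries but not with them when that library was left out. At 4 h it was 0.03. Gabrg1, a GABA-A receptor subunit, was at 0.33, Rpp14, a protein of RNase P, at 0.27, and Gdap1, a mitochondrial outer membrane protein, at 0.26. Mmachc, which processes vitamin B12, and Itfg1 were each at 0.22. Mtmr6, a phosphoinositide phosphatase, and Araf, a Raf kinase, were each at 0.20, and Cryzl1 was at 0.18. The 9 adjusted p-values lay between 0.35 and 0.45 by limma. All 9 were above 0 in each of the 4 runs, as were 771 of all genes (6.37%), and at 4 h their differences lay between -0.14 and 0.03.

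On the lower side Trerf1 (chromosome 17, 47140942 to 47359458), a zinc finger regulator of transcription, stood at 5.95 to 8.72 scaled FPKM with CREB (median 7.09), against 8.02, 10.3, 7.81 and 10.7 in GFP replicates 1 to 4. Its levels overlapped across runs, but within each run it was lower with CREB, by log2 differences of -0.20, -0.34, -0.28 and -0.36. Over all runs it was at -0.30 (SE 0.048, adjusted p = 0.15, limma), and at -0.29 without GFP replicate 2 (adjusted p = 0.53, limma). It passed with library weights over all 16 libraries but not with them when that library was left out. C2cd4b was at -0.38 and Nckap5l at -0.28. Esyt1, a tether between the endoplasmic reticulum and the plasma membrane, and Ssh3, of the cofilin phosphatase family, were each at -0.25. Dennd1a, an activator of Rab GTPases in endocytosis, was at -0.18, and Wbp11, a splicing factor partner, at -0.15. Sap30bp was at -0.16, with 17.1 to 19.6 scaled FPKM in CREB libraries and 20.1 to 22.9 in GFP libraries, which did not overlap. Adjusted p-values for these genes lay between 0.15 and 0.45 by limma. They were below 0 in each of the 4 runs apart from Ssh3, which was at 0.00 in run 1; of all genes, 934 (7.72%) were below 0 in each.

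Few genes had groups that did not overlap at all. Whether there were more of them than a random order of the libraries gives was not tested, so their listing is a description. All 12 CREB libraries lay above all 4 GFP libraries for 9 genes (0.0744%) and below for 7 (0.0579%), and without GFP replicate 2 there were 13 in each direction (0.107% each). Beside Creb1, Atp6v1a and Calb1, the genes above included Cisd1, an iron-sulfur protein of the mitochondrial outer membrane, Jak1, a cytokine receptor kinase, Ap4s1, a subunit of the AP-4 vesicle adaptor, Arl6ip1 and Scai. Their levels came close at the edges. Cisd1 stood at 61.2 to 70.02 scaled FPKM with CREB and 56.3 to 60.3 with GFP (log2 0.14), and Jak1 at 16.7 to 23.8 with CREB and 14.9 to 16.7 with GFP (log2 0.25). Ap4s1 was at 0.24, Scai at 0.24 (0.15 without GFP replicate 2) and Arl6ip1 at 0.22 (0.12 without it). Beside Gap43, Sap30bp and Hist1h4i, the genes below were Mark2, a microtubule affinity kinase of cell polarity, Abhd11, Kpna2, a nuclear import receptor, and 1500012F01Rik. Mark2 stood at 20.01 to 23.7 with CREB and 24.1 to 26.3 with GFP (log2 -0.16), and Abhd11 at 28.5 to 34.7 with CREB and 35.6 to 37.5 with GFP (log2 -0.14). Kpna2 stood at 0.936 to 1.68 with CREB, against 2.87, 33.6, 1.97 and 1.76 in GFP replicates 1 to 4, a log2 difference of -0.46 without GFP replicate 2. Apart from Creb1 none passed, with adjusted p-values from 0.45 to 0.47 by limma for Mark2, Abhd11, Kpna2, Cisd1, Jak1, Ap4s1, Scai, Arl6ip1 and Calb1.

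Heat shock chaperones leaned to lower levels with CREB. Of 18 measured, 4 were higher and 14 lower (median -0.13), and none passed. At an unadjusted p under 0.05 the list had 1 higher and 5 lower, where all genes tested had 5.46% higher and 4.6% lower. Hspa1b, an inducible Hsp70, stood at 20.2 to 52.8 scaled FPKM with CREB (median 32.5), against 42.6, 114, 43.6 and 57.4 in GFP replicates 1 to 4. Its log2 difference was -0.79 (SE 0.18, adjusted p = 0.45, limma), and -0.54 without GFP replicate 2. Hspa1a, its near-identical neighbour, was at -0.91 and at -0.44 without that library, and reads shared by the pair cannot be attributed. Hspb1, a small chaperone, was at -0.85 (-0.55 without it) and Hspd1, a mitochondrial chaperonin, at -0.33 (-0.09 without it). Without GFP replicate 2 the list divided 6 higher to 12 lower (median -0.05), with 2 higher and 4 lower at an unadjusted p under 0.05. In that fit all genes tested had 2.96% higher and 3.15% lower. The list median was 0.05 at 4 h.

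Subunits of the vacuolar proton pump, which acidifies lysosomes and synaptic vesicles, leaned the other way. Of 17 measured, 14 were higher and 3 lower with CREB (median 0.11), and 16 were higher and 1 lower without GFP replicate 2 (median 0.12). At an unadjusted p under 0.05 there were 5 higher and 0 lower, and 4 higher without that library, but none passed in limma. Of all genes tested, 5.46% were higher at that threshold, and 2.96% without that library. Atp6v1a, the catalytic subunit, stood at 60.0 to 76.3 scaled FPKM with CREB (median 65.9), against 56.5, 52.1, 59.8 and 59.8 in GFP replicates 1 to 4. Its groups did not overlap, narrowly, and the log2 difference was 0.22 (SE 0.061, adjusted p = 0.45, limma). Atp6ap2, an accessory subunit, was at 0.29, Atp6v1c1 at 0.18 and Atp6v0d1, a membrane subunit, at 0.12 (adjusted p = 0.45 each, limma). The list medians were 0.20, 0.07, 0.16 and 0.04 in runs 1 to 4 and -0.06 at 4 h.

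**Figure D4:**
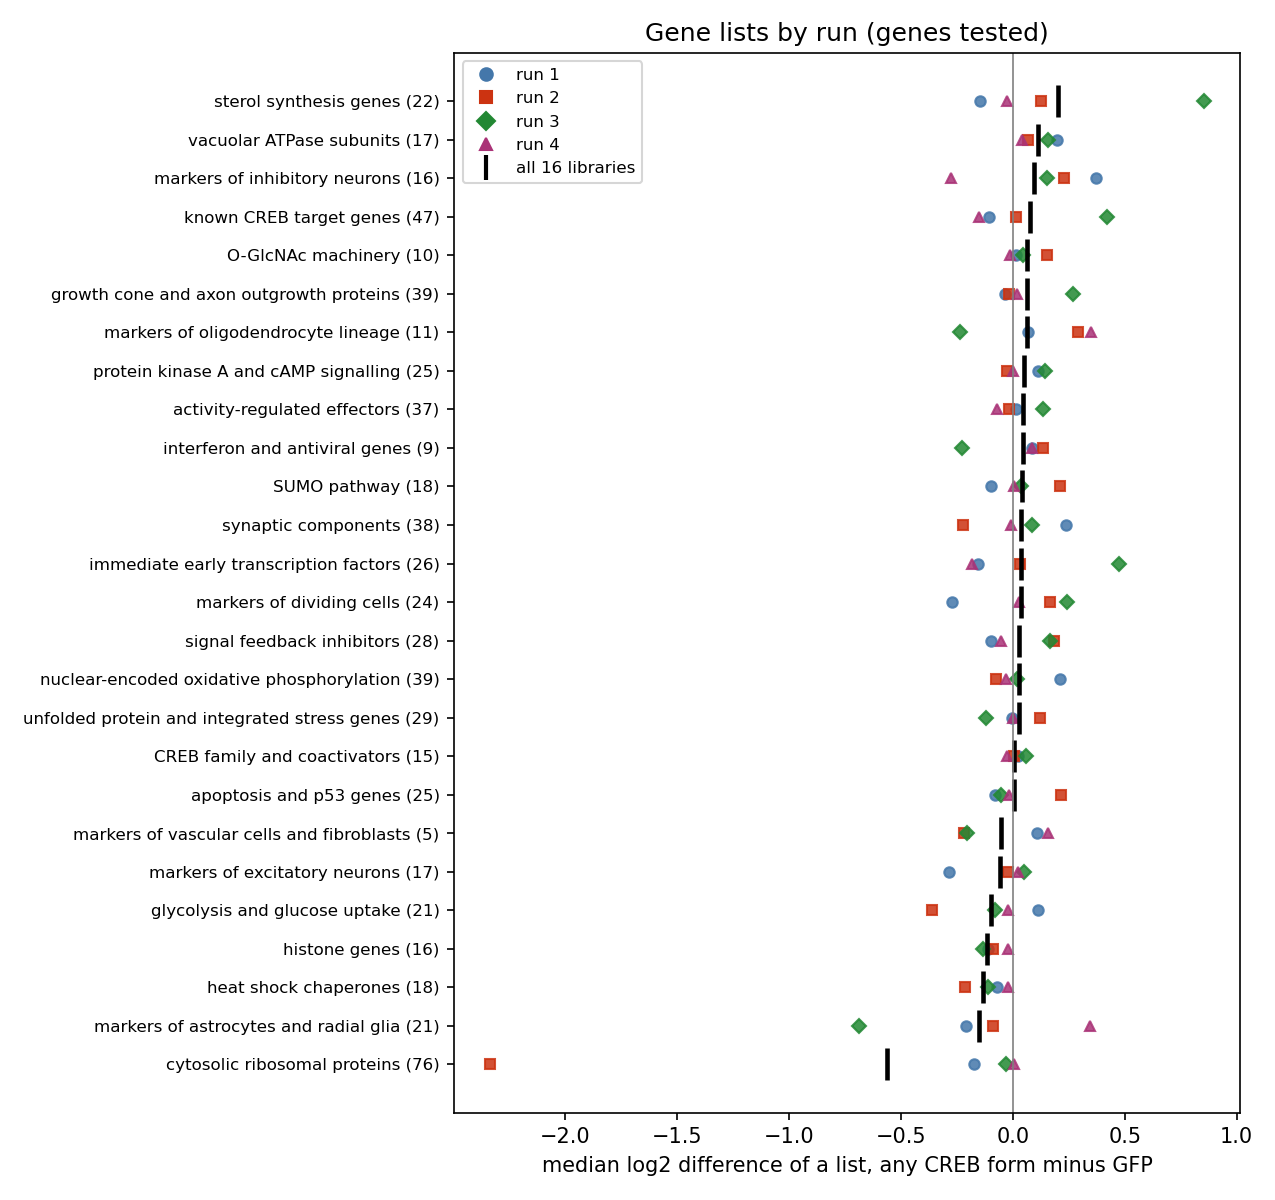
Median log2 difference of any CREB form minus GFP (horizontal axis) for 26 gene lists (genes tested in brackets), over all 16 libraries (black bars) and in each run (symbols). The ribosomal median of -0.56 rests on run 2, at -2.33, which holds GFP replicate 2, and the sterol median of 0.20 on run 3, at 0.85, which holds GFP replicate 3.

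Several lists moved with a single GFP library. Of 76 cytosolic ribosomal protein genes, 9 were higher and 67 lower (median -0.56), with 18 lower at an unadjusted p under 0.05, as were 4.6% of all genes tested. Fitted without GFP replicate 2 they divided 25 to 51 (median -0.04). Rpl9 stood at 0.177 to 0.993 scaled FPKM with CREB, against 0.650, 249.5, 0.505 and 0.901 in GFP replicates 1 to 4. It was thus under 1 in every 8 h library but GFP replicate 2. Genes were kept for testing by their mean over all 22 libraries, so Rpl9 stayed among the 76 in the fit without GFP replicate 2. Glycolysis genes divided 5 higher to 16 lower (median -0.10), and 9 to 12 (median -0.01) without that library; Gapdh stood at 0.712 to 1.58 with CREB, against 1.13, 132, 0.860 and 0.878 with GFP. Both genes have many near-identical processed copies, so their low levels in the other 8 h libraries are uncertain. Gapdh was also high at 4 h in replicate 1 of GFP, WT and S40A, at 15.4, 14.7 and 13.3, against 1.02, 1.24 and 1.11 in replicate 2. Sterol synthesis genes were higher in 20 of 22 (median 0.20), with run medians of -0.14, 0.12, 0.85 and -0.03, and the median was -0.01 without GFP replicate 3. Hmgcs1, an early enzyme of the pathway, was at 0.30 (adjusted p = 0.49, limma) and Nsdhl, a later enzyme, at 0.32 (adjusted p = 0.47, limma). The part of either library in these differences beyond such values was not tested.

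The machinery that modifies the lost sites was also measured. Of 10 genes that make, add or remove O-GlcNAc, 9 were higher and 1 lower (median 0.06), and 7 to 3 without GFP replicate 2 (median 0.02). Ogt, the transferase, was at 0.15 (0.02 without that library) and Gfpt1, the entry enzyme of the hexosamine pathway, at 0.16 (0.06 without it). Of 25 genes of protein kinase A and cAMP signalling, 16 were higher and 9 lower (median 0.05). Pkia, an inhibitor peptide of the kinase, stood at 69.7 ± 10.6 scaled FPKM with CREB (SD, n = 12) and 55.4 ± 9.95 with GFP (SD, n = 4), a log2 difference of 0.33 (adjusted p = 0.45, limma). Prkar2b, a regulatory subunit, was at 0.23, and Prkacb, a catalytic subunit, at 0.25 (adjusted p = 0.45 and 0.52, limma). SUMO pathway genes divided 10 higher to 8 lower (median 0.04), with Sumo3 at 0.14 and the ligase Pias4 at -0.21 (adjusted p = 0.45 and 0.52, limma). By form Pias4 was at 0.01 with WT, -0.28 with S40A, -0.40 with S133A and -0.45 with S40A-S133A, and the forms did not pass the test of a difference (adjusted p = 0.33, limma).

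Other functional groups held no call by limma. Nuclear-encoded oxidative phosphorylation genes divided 26 higher to 13 lower (median 0.03), and 35 to 4 without GFP replicate 2 (median 0.07). Their run medians were 0.21, -0.07, 0.02 and -0.03 in runs 1 to 4, so the lean was largest in run 1. Sdhc, of complex II, was at 0.13 and Ndufs4, of complex I, at 0.17. Synaptic components divided 24 to 14 (median 0.04), and 32 to 6 without GFP replicate 2 (median 0.08). Their run medians were 0.24, -0.22, 0.09 and -0.01, and their median was -0.10 at 4 h. Snap25, a vesicle fusion protein, was at 0.17 and Gria2, an AMPA receptor subunit, at 0.22. Histone genes divided 5 to 11 (median -0.11), and 6 to 10 without GFP replicate 2 (median -0.04). Hist1h4i, a core histone of a family of near-identical copies, stood at 0.714 to 2.11 scaled FPKM with CREB and 2.32 to 4.01 with GFP, without overlap (log2 -0.68, adjusted p = 0.45, limma), and H1f0, a linker histone, was at -0.20. Unfolded protein and integrated stress genes divided 16 to 13 (median 0.03), and 14 to 15 without GFP replicate 2 (median -0.01). Apoptosis and p53 genes divided 13 to 12 (median 0.00), and 9 to 16 without it (median -0.05). The 9 measured of 35 interferon and antiviral genes divided 5 to 4 (median 0.05), and 4 to 5 without it (median -0.02). CREB and GFP libraries alike had HSV.

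Cell type markers gave no called member either. Excitatory neuron markers divided 6 higher to 11 lower (median -0.06), with summed levels of 399 to 603 scaled FPKM with CREB and 482 to 622 with GFP. Inhibitory neuron markers divided 14 to 2 (median 0.10), with run medians of 0.37, 0.23, 0.15 and -0.27. Their summed levels were 430 to 945 with CREB and 388 to 750 with GFP. Gad1 and Gad2 were each at 0.29 and Sst at 0.09. Npy, a neuropeptide, was at 0.62 and Calb1, a calcium buffer, at 0.44 (adjusted p = 0.48 and 0.47, limma). Calb1 stood at 3.63 to 9.53 with CREB and 3.25 to 3.61 with GFP, without overlap. Astrocyte and radial glia markers divided 5 to 16 (median -0.15), with run medians of -0.21, -0.09, -0.68 and 0.35, and their median was 0.09 without GFP replicate 3. Their summed levels were 255 to 732 with CREB and 410 to 631 with GFP. Oligodendrocyte markers divided 8 to 3 among 11 measured (median 0.06), and markers of dividing cells 16 to 8 (median 0.03). Without GFP replicate 2, oligodendrocyte markers divided 5 to 6 (median -0.05) and markers of dividing cells 15 to 9 (median 0.03). Excitatory markers then divided 8 to 9 (median -0.01), inhibitory markers 13 to 3 (median 0.06) and astrocyte and radial glia markers 3 to 18 (median -0.18). Whether cell makeup had a part in any difference above was not tested.

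Differences among the forms were few. The test among the 4 forms called 3 entries (0.0248%), the small RNA entries Mir27a, Mir320 and Snora68, and 367 genes (3.03%) had an unadjusted p under 0.05 by limma. No list member named above was among the calls. The CREB effect differed between the earlier and later libraries for 2 entries (0.0165%), AY074887 and Mir483, with 985 genes (8.14%) at an unadjusted p under 0.05 by limma.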

How the data were processed

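The 22 RNA libraries were labelled by virus, time and replicate. CASAVA 1.7, Bowtie 0.12.2, Cufflinks and the builds mm8 and mm10 are named, without roles, per the submitters' processing notes; positions in the files fall on mm10. The authors deposited FPKM values, with bounds, for 24490 gene entries per library. Read depth, handling of multiply mapped reads and strand are not given in the sources used here, so genes with near-identical copies, and overlapping or antisense genes, are uncertain.

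Values were scaled by median-of-ratios, a pseudocount of 1 was added and log2 was taken, which understates changes of low genes. Of the entries, 12118 averaged 1 FPKM or more over all 22 libraries, and removal of 21 with a failed Cufflinks estimate left 12097. limma 3.58.1 in R 4.3.3 fitted run plus any CREB form (trended variance, 11 residual degrees of freedom, two-sided moderated tests, Benjamini-Hochberg over all genes tested, calls at an adjusted p under 0.05). Intervals are 95%. Whether replicates were separate cultures is not labelled, so the p-values reflect the spread among these samples, which could be technical. What libraries of a run shared is not stated. Same-run libraries deviated together with a median r of 0.43 (26 pairs, 22 over 0.1), against -0.14 for 74 pairs from different runs. The forms, the earlier and later libraries, the 4 h libraries (3 residual degrees of freedom) and the change with time were tested in the same way. Steps were tested on simulated data. Promoters came from RefSeq. Python 3.11.15, pandas 2.3.3 and matplotlib 3.10.9 were used.

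Named genes were Creb1 and Gap43, the genes of smallest p filling up to 10 per direction among assigned names, up to 4 members of smallest p per list, and classical CREB targets. Genes whose groups did not overlap were chosen after their values were seen (1 of them is not reported here), as were the CREB targets shown with their promoters. The members and lists were chosen with earlier results of these data known. Alternatives covered the run term, scaling, pseudocount, minimum, library weights, form weights, subsets of forms and runs, and each library left out.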

Additional observations from a re-analysis of the deposited data

Results flagged for a closer look

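Within the 4 GFP libraries at 8 h, 14 of 101 genes examined had a single library standing far from the other 3 by Dixon's test. Chance gives about 1 in 20 for genes chosen without regard to their values. Many of these genes were chosen by small p or by groups that did not overlap, so that rate is no yardstick here. GFP replicate 2 accounted for 9 of the 14. In scaled FPKM it was high for Gapdh at 132 (others 0.860 to 1.13), Pgk1 at 131 (8.39 to 11.5), Hspa1a at 91.2 (17.1 to 19.4), Hspd1 at 89.2 (38.6 to 45.4), Rps2 at 369 (175 to 196) and Kpna2, a nuclear import receptor, at 33.6 (1.76 to 2.87). It was low for Arl6ip1 at 53.4 (74.8 to 75.6), Scai at 4.59 (6.45 to 6.69) and Dusp2 at 2.98 (3.70 to 3.80). Some of the high genes were also high at 4 h, in replicate 1 of GFP, WT and S40A but not in replicate 2. Gapdh was at 15.4, 14.7 and 13.3 in replicate 1 and 1.02, 1.24 and 1.11 in replicate 2. Pgk1 was at 139, 147 and 135 against 10.0, 9.19 and 10.2, and Kpna2 at 44.5, 69.3 and 61.4 against 1.37, 1.84 and 2.68. Rps2 differed less, at 137, 148 and 140 against 121, 122 and 124. GFP replicate 3 was low for Sst at 65.0 (177 to 184) and high for Rpp14 at 5.45 (4.58 to 4.59) and Abhd11 at 37.5 (35.6 to 35.7). GFP replicate 4 was high for Atf3, a stress-induced factor, at 65.8 (26.9 to 31.7), and GFP replicate 1 low for Hist1h2bc at 14.1 (21.9 to 23.1).

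The CREB effect differed between the later and the earlier libraries for AY074887 by -2.23 (log2, adjusted p = 1.25e-05, limma), which was listed at 0 in 12 of the 16 libraries, and for Mir483 by -6.11 (adjusted p = 3.83e-11), listed at 0 in 14. The forms differed, by limma, for Mir27a (adjusted p = 2.22e-09), above 0 in the S133A libraries alone, for Mir320 (adjusted p = 8.72e-06), above 0 in the S40A-S133A libraries alone, and for Snora68 (adjusted p = 0.00154), listed at 0 in both S133A libraries. Of these 5 entries, 4 are under 100 bases long.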

How the results depend on the processing

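Leaving out each of the 16 libraries in turn left 1 call, Creb1, at every step, with its log2 difference between 5.95 and 6.75 and that of Gap43 between -1.20 and -0.85. The same single call came from fits with no replicate block, with library set in place of run, with unscaled or upper-quartile scaled FPKM, with pseudocounts of 0.1 and 5, with no minimum or one of 5 FPKM, and from WT and S40A alone. Library weights gave 5 calls (Creb1, Gap43, Med21, Trerf1 and Mir1231), Gap43 at -0.95 (adjusted p = 0.0369, limma), and Creb1 alone when GFP replicate 2 was also left out. Equal weight to each form gave 3 calls, runs 1 and 2 alone 7, and runs 3 and 4 alone 6. Without GFP replicate 2 and with no minimum, an alternative chosen after seeing the data, there were 3. With no minimum the forms differed for 5 entries, and the effect by library set was called for 6 without GFP replicate 2. At 4 h calls numbered 11 with no minimum and 5 to 37 with 1 library left out: 29 without GFP replicate 1, 37 without GFP replicate 2, 11 without WT replicate 1 and 8 without S40A replicate 2. The causes of these moves were not tested. Of the settings for single named genes, 40 changed a sign, 3 passed the threshold and 2818 did neither. A list median counted as moved where its shift reached the SD of its own 4 run medians. By that measure 11 moved and 770 did not. A list with 1 outlying run thus had a wide allowance, so this count does not show that list medians were stable. The ribosomal median went from -0.56 to -0.04 without GFP replicate 2 and counted as not moved. Same-run libraries did not all deviate together (lowest r -0.11), so the run term rests on the design chosen for the comparison. Read depth is unknown.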
